A study of Homo sapiens with 18 samples.

Results

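Morphine was compared with water within 3 matched pairs of RNA libraries. The pairs were formed from the library names, which end in 1 of 3 codes, called A, B and C here. Code A joins Control 1 with Morphine 1, code B joins Control 2 with Morphine 2, and code C joins Control 3 with Morphine 3. These 6 libraries are part of 18, which cover water and 5 opioid receptor ligands. All came from SH-SY5Y, a human neuroblastoma cell line that takes on neuron-like features under retinoic acid. Before treatment, the cells of both groups spent 7 days in all-trans retinoic acid at 10 µM. Control cells then received water for 15 min, and Morphine cells received 193 nM morphine for 15 min. The labels say neither what the codes stand for nor whether the 3 libraries of a group were separate cultures. The p-values therefore measure only the spread between libraries, which the main test estimated over all 18.

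Morphine is the classical agonist of the µ opioid receptor, OPRM1. Opioid receptors couple to Gi/o proteins, which inhibit adenylyl cyclase, open inwardly rectifying potassium channels, close voltage-gated calcium channels and engage the MAP kinase cascade, while GRK kinases and arrestins switch the receptor off. Immediate early genes such as FOS and EGR1 can be transcribed within minutes of a signal. This goes through CREB at cAMP response elements and through SRF at CArG boxes.

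The promoters of early genes are shown first, because these genes can respond within the 15 min of treatment. Whether they read out opioid receptor signalling in these cells was not tested. The 250 bases before the start of FOS, EGR1 and IER2 are given 5′ to 3′ on the coding strand from RefSeq, build GRCh38.p14. Capitals mark TGACG, the core of the cAMP response element, on either strand (CGTCA when read on the other strand), and the CArG box, by its name alone. FOS lies at chr14:75278578-75278827 (+), EGR1 at chr5:138465229-138465478 (+) and IER2 at chr19:13150161-13150410 (+).
FOS: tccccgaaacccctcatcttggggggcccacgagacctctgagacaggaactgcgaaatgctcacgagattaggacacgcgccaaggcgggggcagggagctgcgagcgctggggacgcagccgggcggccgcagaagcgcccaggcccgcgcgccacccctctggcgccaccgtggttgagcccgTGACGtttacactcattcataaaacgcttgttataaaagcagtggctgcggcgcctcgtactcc
EGR1: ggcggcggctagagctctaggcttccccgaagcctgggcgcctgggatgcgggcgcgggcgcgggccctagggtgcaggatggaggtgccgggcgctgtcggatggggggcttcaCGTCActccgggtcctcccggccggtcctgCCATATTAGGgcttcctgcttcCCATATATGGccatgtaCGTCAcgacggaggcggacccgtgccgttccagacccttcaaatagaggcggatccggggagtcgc
IER2: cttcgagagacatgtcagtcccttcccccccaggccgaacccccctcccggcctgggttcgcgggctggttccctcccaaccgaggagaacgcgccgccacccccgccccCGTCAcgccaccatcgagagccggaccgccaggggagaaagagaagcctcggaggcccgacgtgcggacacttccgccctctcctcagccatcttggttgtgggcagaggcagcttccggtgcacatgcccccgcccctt

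Of the 37 early genes listed, 29 matched a promoter entry. TGACG, searched on both strands, was in 17 of these 29 and in 21.7% of all 27305 promoters of the same length. The full palindrome TGACGTCA, which contains TGACG, was in 2 of 29 and in 1.77% of all promoters. A CArG box was in 2 of 29 and in 1.14% of all promoters, and the EGR1 promoter held 2, starting 105 and 83 bases before the start site. Among the 6 matched early genes that were lower under morphine in every pair, 5 held TGACG, 1 held TGACGTCA and 0 held a CArG box. A match describes letters in the window and is not evidence of a bound factor. Bases farther upstream were not searched, so a promoter without a match may hold the motif outside this window.

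No gene passed edgeR's quasi-likelihood test of Morphine against Control: 0 of 23231 had an adjusted p under 0.05, which is 0% of genes tested. The smallest Benjamini-Hochberg adjusted p was 0.823. At an unadjusted p under 0.05 there were 944 genes, or 4.06%, of which 336 were higher and 608 lower under morphine. This balance turned without Control 2, where 1896 were higher and 1342 lower. DESeq2 called 0 genes (1221 at an unadjusted p under 0.05), and limma's voom with the library code in the model called 0 (1161). Without Control 1 the quasi-likelihood test called 0 genes (376 at an unadjusted p under 0.05). The 95% interval of a log2 fold change reached 0.495 to each side at the median of 11988 genes that averaged 10 CPM or more (CPM being reads scaled to library size) and was wider or narrower for single genes. Since these are bulk samples, fewer cells of a type and less RNA per cell cannot be told apart.

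The direction within each pair was therefore counted, as Morphine minus Control in log2 CPM of the same code. In all 3 pairs 2487 genes were higher under morphine (10.7% of genes tested), and 2055 were lower (8.85%). With another size-factor scaling (RLE) the balance turned, to 2120 higher and 2335 lower. Leaving pair A aside, 4093 genes were higher in both other pairs (17.6%) and 3870 lower (16.7%). Every Morphine library lay above every Control library in 693 genes (2.98%) and below in 511 (2.2%). Among the 11988 genes with at least 10 CPM, 1462 were higher in all 3 pairs (12.2%) and 697 lower (5.81%), and the non-overlapping counts were 396 above (3.3%) and 130 below (1.08%). Of the same genes, 2150 were higher (17.9%) and 1150 lower (9.59%) in both pairs B and C.

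The 3 pairs were of unequal size and did not move alike. Over genes with at least 10 CPM, the pair difference had an SD of 0.782 (log2) in pair A, against 0.309 in pair B and 0.285 in pair C. More than 2-fold differences took up 18.3% of genes in pair A, 0.342% in pair B and 0.509% in pair C. Across genes, which are not independent replicates, the differences of pair B and pair C had a Pearson r of -0.53, and only 27.5% of genes had the same sign in both. The pair A differences had r = 0.01 with those of pair B and 0.13 with those of pair C. The most frequent pattern was lower in pair A, higher in pair B and lower in pair C, in 2801 genes (23.4%).

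**Figure D1:**
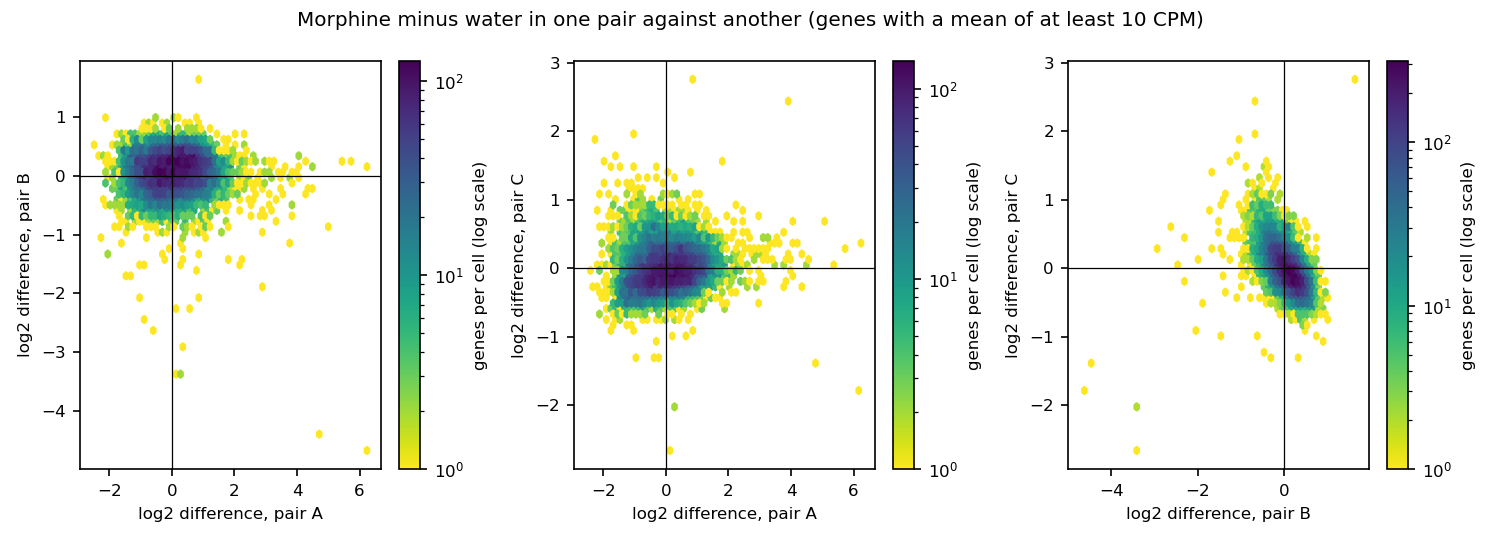
Pair differences (Morphine minus Control, log2 CPM) of one code plotted against those of another, over genes averaging 10 CPM or more; darker hexagons hold more genes. The pair A differences spread widest (SD 0.782), and the pair B and pair C differences slope against each other (r = -0.53).

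Much of the spread lay among the Control libraries. The SD of log2 differences between 2 Control libraries was 0.656 to 0.786 over these genes, and between 2 Morphine libraries 0.229 to 0.409. Control 1 stood farthest from the other ligands' libraries of its own code (SD 0.586), while the other 5 libraries stood at 0.192 to 0.283 from theirs. Control 1 also held 20888 reads in 2077 protein-coding genes whose median count over the 18 libraries was 0, against 277 to 906 reads in the other 5. Totals ran from 22455473 to 30763237 counts. Mitochondrial transcripts took up 13.3%, 15.7% and 5.81% of counts in Control 1 to 3, and 9.85%, 10.4% and 9.47% in Morphine 1 to 3. The part of these differences in the results was not tested.

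Genes with a longer exon length were higher under morphine in pair A. Exon length is the merged length of all annotated exons of a gene and can exceed that of any of its RNAs. From the shortest to the longest quintile of genes by exon length, the median difference went from -0.63 to 0.58 in pair A, from 0.16 to 0.01 in pair B and from -0.15 to 0.08 in pair C. By GC content, from the lowest to the highest quintile, it went from 0.42 to -0.42, from 0.29 to -0.08 and from -0.15 to 0.08. Higher in all 3 pairs were 4.71% of the shortest quintile and 20.3% of the longest, and lower in all 3 were 8.63% and 2.09%. From the lowest to the highest GC quintile, the share higher in all 3 pairs went from 13.5% to 4.38%. The share lower in all 3 went from 1.21% to 11.8%. The CPM-weighted median exon length was 3775 bases in Control 1 and 4347 to 4851 in the other 5 libraries. Ribosomal protein genes, described below, had a median exon length of 3109 bases, against 4902 over the genes of this trend. The part of the trend in the list results was not tested.

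**Figure D2:**
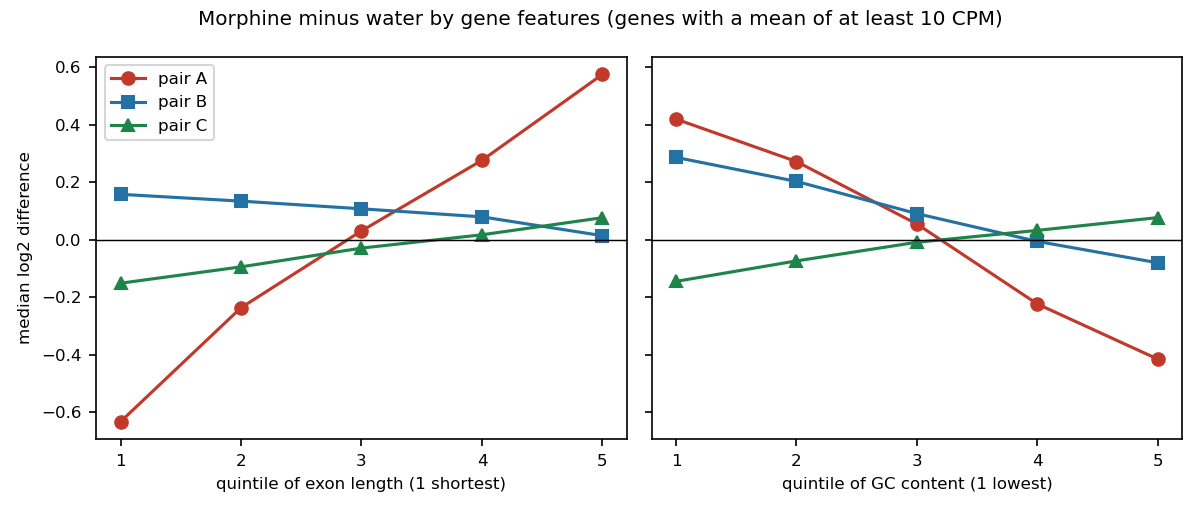
Median pair difference (Morphine minus Control, log2 CPM) by quintiles of exon length and of GC content, for each code. Over the length quintiles, the pair A line runs from -0.63 to 0.58 and the other lines stay within 0.16 of 0. Over the GC quintiles, the lines run from 0.42 to -0.42 (pair A), 0.29 to -0.08 (pair B) and -0.15 to 0.08 (pair C).

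The SH-SY5Y label was checked against markers. PHOX2A, which specifies noradrenergic neurons, was at 1331 to 1960 CPM over the 6 libraries, the neuronal tubulin TUBB3 at 486 to 869 CPM and DBH, the enzyme that makes noradrenaline, at 923 to 2003 CPM. TH, the first enzyme of catecholamine synthesis, was near 0, at no more than 0.361 CPM. Markers of other cells were low, except that the 20 fibroblast and mesenchymal markers, VIM among them, summed to 1051 to 1371 CPM over the 6 libraries. The 21 immune markers summed to 11 to 14.6 CPM in the Morphine libraries and to 33.3, 17.8 and 13.2 CPM in Control 1 to 3. The 20 epithelial markers summed to 32.0 to 47.7 CPM under morphine and to 77.2, 42.6 and 47.7 CPM in Control 1 to 3. The adhesion proteins CDH1 of epithelium and PECAM1 of endothelium were at 2.93 and 0.903 CPM in Control 1 and at 0 in the other 5, and the globin HBB was at 0 in all 6.

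Of the receptors, OPRM1 was detected at low levels. It was at 5.78, 19.3 and 4.93 CPM in Control 1 to 3 and at 14.4, 13.7 and 5.89 CPM in Morphine 1 to 3. The groups overlapped, the pair differences were 1.3, -0.49 and 0.25, and the log2 fold change was 0.18 ± 0.57 (SE, n = 3 per group; edgeR's adjusted p = 0.939). OPRD1, the δ receptor, was the most read opioid receptor gene, at 67.1, 185 and 43.6 CPM in the controls and 82.6, 91.8 and 59.2 CPM under morphine. Control 2 was the high library, and the log2 fold change of OPRD1 was -0.34 ± 0.51 (SE). OPRL1, the nociceptin receptor, was higher under morphine in all 3 pairs, by 0.06, 0.18 and 0.14, within overlapping groups of 13.6 to 17.6 and 14.2 to 19.4 CPM. OPRK1, the κ receptor, and the ligand precursors POMC, PENK, PDYN and PNOC were too low to test.

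Of 26 G protein subunit genes, 3 were higher under morphine in all 3 pairs and 1 was lower, near or under the 10.7% and 8.85% of all genes, with median differences of 0.29, 0.18 and -0.07 in pairs A, B and C. The corresponding medians over all genes tested were 0.014, 0.011 and -0.00085. GNAO1, the abundant inhibitory α subunit of neurons, was at 47.0, 56.1 and 46.2 CPM in the controls and at 65.4, 60.3 and 56.4 CPM under morphine, so that every Morphine library lay above every Control library. Its log2 fold change was 0.29 ± 0.22 (SE; edgeR's adjusted p = 0.823). GNG7 and GNG12, both γ subunits, were the others that were higher, and GNG8 was lower, from 602, 225 and 421 CPM to 156, 198 and 376 CPM. GNAI2, the ubiquitous inhibitory α subunit, did not keep 1 direction, with differences of -0.54, 0.09 and 0.02.

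Genes that end receptor signalling gave 3 higher and 1 lower of 28 tested, near or under the 10.7% and 8.85% of all genes. GRK3, a receptor kinase, was higher by 1.05, 0.13 and 0.11, and RGS7 and RGS17, which speed the turning off of Gα subunits, were higher by 0.13, 0.40 and 0.09 and by 0.54, 0.36 and 0.10. RGS17 was at 11, 12.7 and 14.9 CPM in the controls and at 16, 16.4 and 16 CPM under morphine, without overlap. RGS19 was lower, by 0.56, 0.35 and 0.03. The arrestin ARRB2 moved by -0.45, 0.11 and 0.02, and the main receptor kinase GRK2 by -0.34, -0.15 and 0.04, so neither kept a direction.

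In the cAMP and protein kinase A group, 7 of 41 tested genes (17.1%) were higher in all 3 pairs and 0 lower, against 10.7% and 8.85% of all genes. The group's median exon length was 7129 bases. In the length quintile from 5758 to 8191 bases, 18.2% of genes with at least 10 CPM were higher in all 3 pairs and 3.59% lower. The 7 were the adenylyl cyclases ADCY5, ADCY7 and ADCY9, the kinase PRKX, the anchoring proteins AKAP6 and AKAP9, and RAPGEF4, a cAMP-activated exchange factor. ADCY7 was at 15.4, 23.9 and 14.7 CPM in the controls and at 26.8, 25 and 21.3 CPM under morphine, with the groups overlapping through Control 2. ADCY1, the calcium-stimulated cyclase, was at 46.5, 114 and 58.1 CPM against 150, 106 and 74.5 CPM, and its difference of 1.68 in pair A was not repeated in pair B (-0.10). PDE4B, a phosphodiesterase that breaks down cAMP, was at 44.0, 56.9 and 59.2 CPM against 76.7, 73.5 and 59.0 CPM, a log2 fold change of 0.39 ± 0.16 (SE; unadjusted p = 0.0236, edgeR's adjusted p = 0.823).

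Of 19 ion channel genes tested, 2 were higher in all 3 pairs and 1 lower, near or under the 10.7% and 8.85% of all genes. KCNJ9, a subunit of the potassium channels that Gβγ opens, was at 5.10, 6.29 and 5.19 CPM in the controls and at 9.41, 6.81 and 7.24 CPM under morphine. Every Morphine library lay above every Control library, and the log2 fold change was 0.50 ± 0.22 (SE; unadjusted p = 0.0348, edgeR's adjusted p = 0.823). CACNA2D3, an auxiliary calcium channel subunit, was higher by 0.32, 0.15 and 0.06, and CACNA1G, a T-type calcium channel, was lower by 0.04, 0.44 and 0.35. CACNA1B, the N-type calcium channel that Gβγ inhibits, gave 0.82, -0.34 and 0.65.

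Among MAP kinase genes, 10 of 32 were higher in all 3 pairs and 2 were lower, against 10.7% and 8.85% of all genes. The higher genes included the kinase RPS6KA2 (0.90, 0.13 and 0.24) and the feedback inhibitors DUSP4 (0.71, 0.34 and 0.08) and SPRED2 (1.16, 0.01 and 0.13). HRAS and MAPK3 were lower. With RLE scaling the counts were 8 higher and 4 lower. The members had a median exon length of 5193 bases, against 3368 over all genes tested and 4902 among genes with at least 10 CPM. The medians of this list were 0.60 in pair A, 0.05 in pair B and -0.01 in pair C, so the shift of the median lay mainly in the pair of Control 1. In both pairs B and C, 11 of 32 were higher (34.4%, against 17.6% of all genes) and 5 lower (15.6%, against 16.7%).

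The immediate early genes leaned lower under morphine. Of 32 tested, 0 were higher and 8 lower in all 3 pairs, where 8.85% of all genes were lower. In the pairs B and C, without Control 1, 19 of 32 were lower (59.4%, against 16.7% of all genes). The list's median differences were -0.18, -0.32 and -0.14, and 2 of its genes lay below the controls without overlap, as did 2.2% of all genes. Its members had a median exon length of 3226 bases and a median GC content of 57.0%. In the GC quintile from 52.6% to 58.8%, 8.31% of genes with at least 10 CPM were higher in all 3 pairs and 8.89% lower.

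FOS, the early transcription factor whose promoter opens the sequences above, was at 169, 408 and 465 CPM in the controls and at 203, 147 and 234 CPM under morphine. Control 1 lay within the Morphine range, and Control 2 and Control 3 lay above it. The control mean was 347 ± 157 CPM and the morphine mean 195 ± 44.4 CPM (SD, n = 3), with pair differences of 0.26, -1.47 and -0.99. The log2 fold change of FOS was -0.83 ± 0.39 (SE; unadjusted p = 0.0471, edgeR's adjusted p = 0.823). Without Control 1 it was -1.18. In the 12 libraries of the other ligands FOS ran from 139 to 350 CPM, so Control 2 and Control 3 exceeded all of these.

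FOSB, a partner in the same AP-1 factor, was at 20.4, 142 and 58.3 CPM in the controls and 35.9, 34.5 and 30.7 CPM under morphine. EGR1, a zinc finger factor, was at 282, 926 and 812 CPM in the controls and at 601, 521 and 615 CPM under morphine. Control 1 was the lowest of the 6 libraries for both genes, and Control 2 and Control 3 the highest. The EGR1 differences were 1.09, -0.83 and -0.40, and its log2 fold change was -0.22 ± 0.34 (SE), or -0.60 without Control 1. NR4A1, a nuclear receptor induced by the same signals, was highest in Control 2 at 77.8 CPM and at 24.3 to 39.8 CPM in the other 5.

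The 8 early genes lower in every pair were IER2, JUNB, JUND, CCN1, CSRNP1, FOSL1, NR4A3 and NPAS4. IER2, a transcriptional co-regulator, was at 302, 265 and 381 CPM in the controls and at 220, 219 and 311 CPM under morphine, so the groups overlapped through Morphine 3. Its differences were -0.45, -0.28 and -0.29 and its log2 fold change -0.34 ± 0.21 (SE). JUNB, an AP-1 subunit, was lower by 0.50, 0.04 and 0.33. CCN1, a secreted matrix protein, was at 11.1, 11.2 and 9.21 CPM in the controls and at 8.58, 4.64 and 6.43 CPM under morphine, with no overlap. Its log2 fold change was -0.68 ± 0.30 (SE; unadjusted p = 0.0373, edgeR's adjusted p = 0.823). CSRNP1, a nuclear early response protein, was the other one without overlap, at 4.6703 to 5.98 CPM in the controls and 3.50 to 4.6677 CPM under morphine. NR4A3 and NPAS4 were under 1 CPM in all 6 libraries.

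**Figure D3:**
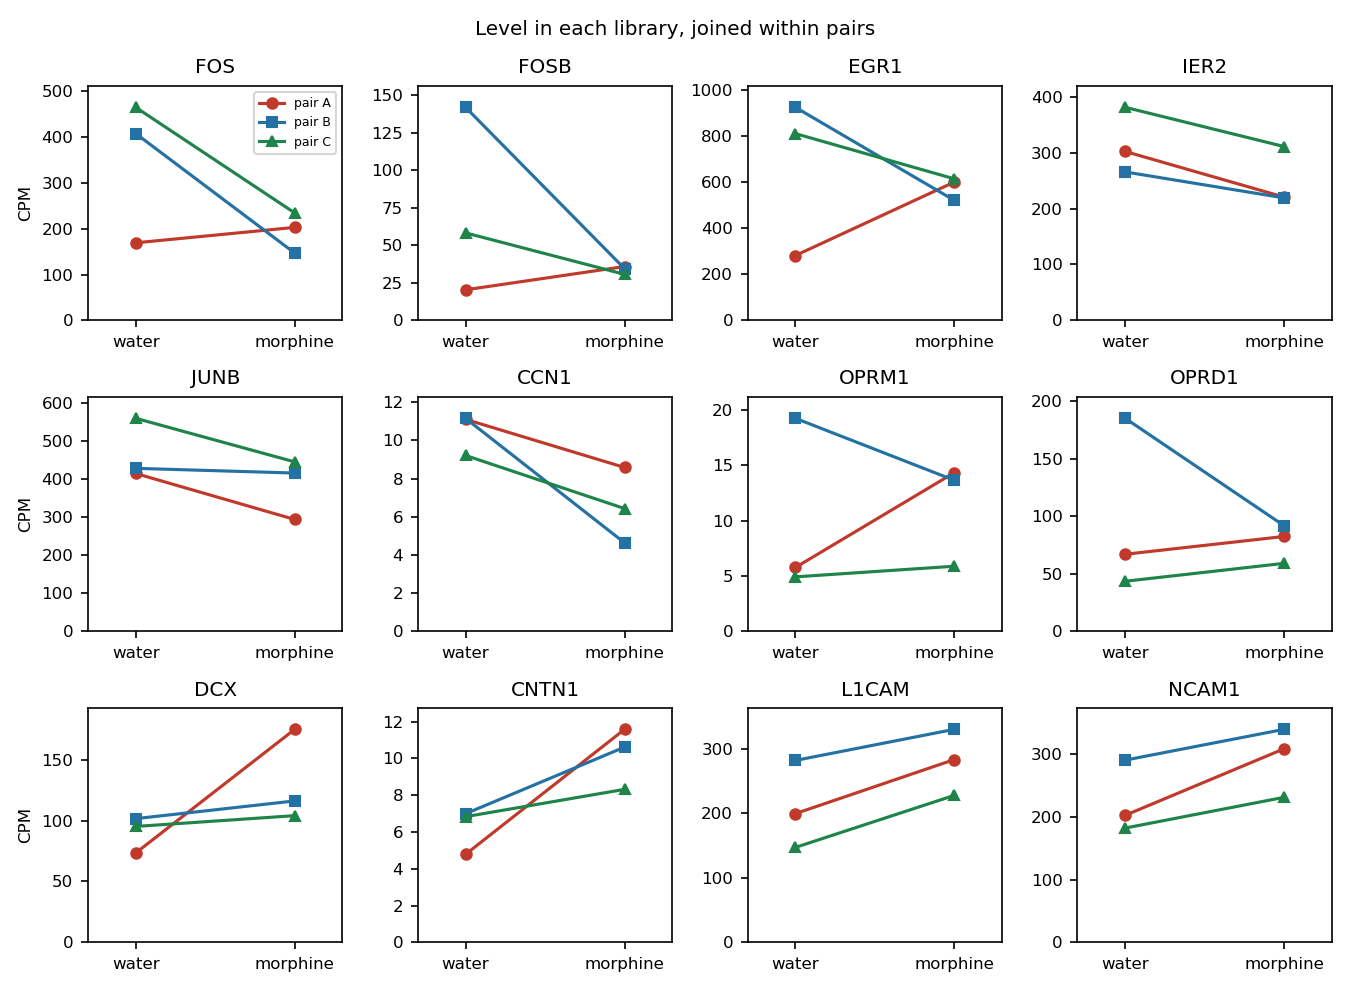
CPM of 12 genes in the 3 Control and 3 Morphine libraries, with lines joining libraries of the same code. FOS, FOSB and EGR1 are lower under morphine in pairs B and C and not in pair A, while DCX, CNTN1, L1CAM and NCAM1 are higher under morphine in every pair.

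Neuronal cytoskeleton and growth genes leaned higher. Of 34 tested, 18 were higher and 0 lower in all 3 pairs, against 10.7% and 8.85% of all genes, and 24 were higher in pairs B and C taken alone (70.6%, against 17.6%). The median differences were 0.31, 0.27 and 0.06. In 6 of the 34, against 2.98% of all genes, every Morphine library lay above every Control library: DPYSL2, DPYSL5, DCX, INA, ELAVL3 and CNTN1. The list's members had a median exon length of 4950 bases, against 3368 over all genes tested, and 4902 among genes with at least 10 CPM.

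DCX, a microtubule protein of migrating neurons, was at 73.4, 102 and 95.2 CPM in the controls and at 175, 116 and 104 CPM under morphine. Its log2 fold change was 0.55 ± 0.26 (SE; unadjusted p = 0.0504, edgeR's adjusted p = 0.823). CNTN1, an axonal adhesion protein, was at 4.78, 6.99 and 6.83 CPM in the controls and at 11.6, 10.6 and 8.32 CPM under morphine. Its differences of 1.26, 0.60 and 0.28 gave a log2 fold change of 0.71 ± 0.21 (SE; unadjusted p = 0.00321, edgeR's adjusted p = 0.823), and 0.54 without Control 1. The adhesion proteins L1CAM and NCAM1 were higher by 0.51, 0.23 and 0.63 and by 0.61, 0.23 and 0.34, with overlapping groups. STMN2, a growth cone protein, and GAP43, a growth-associated protein, did not keep 1 direction (-0.09, 0.70 and -0.18; -0.46, 0.40 and 0.04).

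Synaptic vesicle genes gave 13 of 32 higher and 0 lower in all 3 pairs, against 10.7% and 8.85% of all genes, with medians of 0.41, 0.17 and 0.16. Pairs B and C taken alone had 19 of 32 higher (59.4%, against 17.6% of all genes) and 0 lower (against 16.7%). With RLE scaling 11 were higher in all 3 pairs. The members had a median exon length of 5563.5 bases, against 3368 over all genes tested and 4902 among genes with at least 10 CPM. The 6 without overlap, against 2.98% of all genes, were SYN2, SYT7, SNAP91, RAB3C, NSF and CADPS. CADPS, which primes dense-core vesicles, was at 8.85, 6.73 and 7.31 CPM in the controls and at 9.97, 10.5 and 9.86 CPM under morphine, a log2 fold change of 0.40 ± 0.18 (SE; unadjusted p = 0.0354, edgeR's adjusted p = 0.823). RAB3C, a vesicle GTPase, was at 12.3, 16.8 and 23.3 CPM against 30.2, 24.4 and 25.1 CPM. SYT11, a vesicle protein of the synaptotagmin family, was at 200, 332 and 215 CPM against 492, 411 and 243 CPM, and its groups overlapped. SYP, the vesicle membrane protein synaptophysin, was lower in pair A (-0.47) and higher in the other pairs (0.28 and 0.19).

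Noradrenergic identity genes gave 10 of 29 higher and 0 lower, against 10.7% and 8.85% of all genes, and 9 higher and 1 lower with RLE scaling. GATA2, HAND1 and TFAP2B, transcription factors of sympathetic neurons, were among the 10, as were the noradrenaline transporter SLC6A2 (0.47, 0.15 and 0.53) and the nicotinic receptor subunit CHRNA7 (1.13, 0.08 and 0.10). PHOX2A and DBH did not keep 1 direction. Pairs B and C taken alone had 15 of 29 higher (51.7%, against 17.6% of all genes) and 0 lower (against 16.7%).

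Retinoic acid response genes gave 0 of 17 higher and 5 lower in all 3 pairs, against 10.7% and 8.85% of all genes: DHRS3, CRABP1, CRABP2, RARA and RXRB. Pairs B and C taken alone had 0 higher (against 17.6% of all genes) and 9 of 17 lower (52.9%, against 16.7%). DHRS3, which reduces retinaldehyde and so limits retinoic acid synthesis, was at 190, 160 and 152 CPM in the controls and at 121, 131 and 128 CPM under morphine. The groups did not overlap, and the log2 fold change was -0.40 ± 0.15 (SE; unadjusted p = 0.014, edgeR's adjusted p = 0.823). CRABP1, a cytosolic retinoic acid binding protein, was at 58.4, 16.5 and 34.3 CPM against 22.5, 14.5 and 26.6 CPM. CYP26B1, which degrades retinoic acid, was higher in pair A (1.5) and pair C (0.41) and lower in pair B (-0.28). The list's median GC content was 56.2%, in the same GC quintile as that of the early genes (8.31% higher and 8.89% lower in all 3 pairs). All cells had received the same retinoic acid dose.

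**Figure D4:**
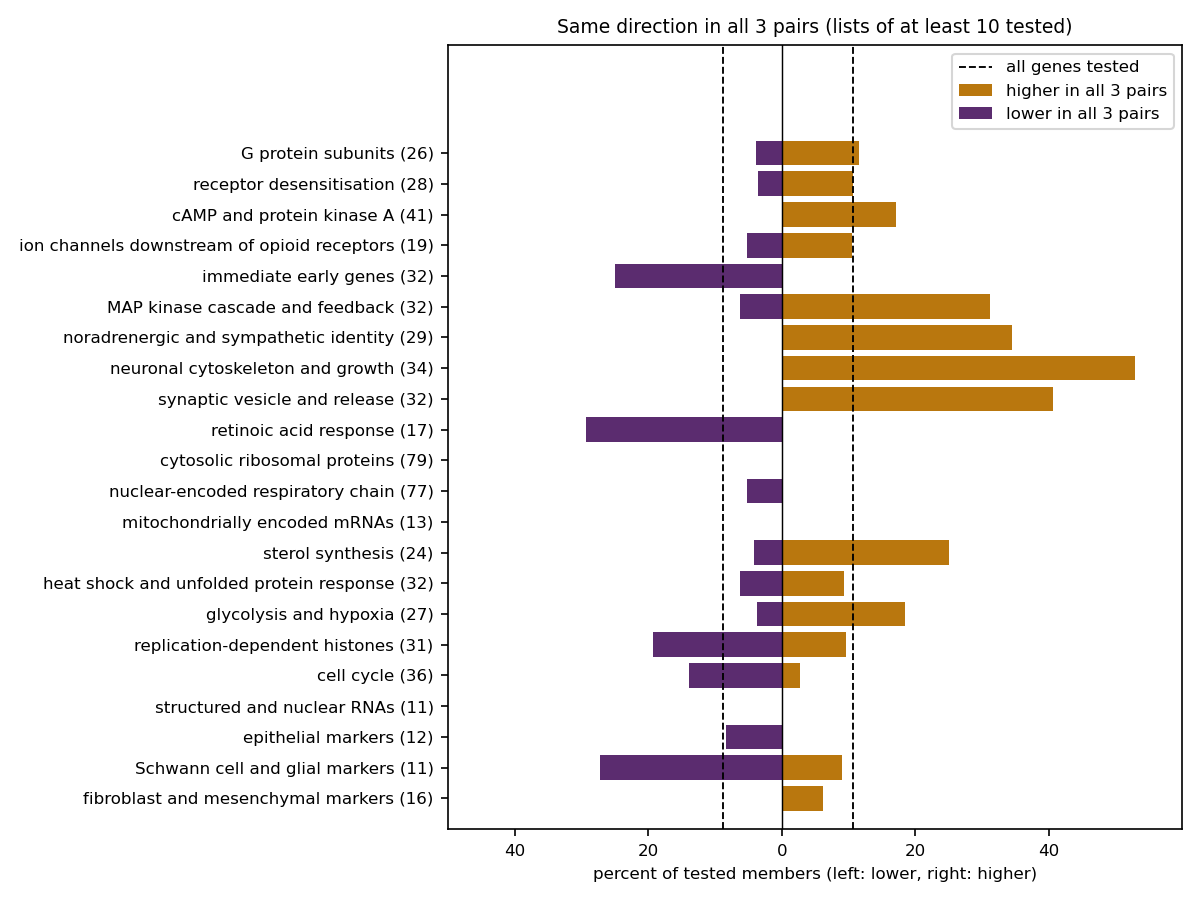
Percent of each gene list's tested members higher, or lower, under morphine in all 3 pairs; the dashed lines mark all genes tested (10.7% higher and 8.85% lower). Lists above the line for higher include neuronal cytoskeleton, synaptic, noradrenergic, MAP kinase, sterol, glycolysis and cAMP genes, and lists above the line for lower are early, retinoic acid, glial, histone and cell cycle genes.

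The ribosomal protein genes showed how the pairs disagreed. All 79 were lower under morphine in pairs A and C and all 79 were higher in pair B, with medians of -1.23, 0.38 and -0.40 in pairs A, B and C. RPS6, a small subunit protein, was at 1332, 523 and 1171 CPM in the controls and at 600, 628 and 998 CPM under morphine. The mRNAs of ribosomal proteins start with a run of pyrimidines, through which their translation is controlled together, so their start sites are shown as the feature that the members share. The 20 bases around the start are given 5′ to 3′ from RefSeq, GRCh38.p14, with a C followed by at least 4 pyrimidines in capitals. They lie at chr9:19380227-19380246 (-), chr12:120201102-120201121 (-), chr19:5690285-5690304 (+) and, without such a run, chr19:1438386-1438405 (+).
RPS6: gaagttggCCCTCTTTTCCg
RPLP0: ggcgcgaggCCCTTCTCTCg
RPL36: cggcgccagCCCTTCCgcca
RPS15: aggcgcggaccaaagcgatc

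The run was in 50 of 63 ribosomal genes with a promoter entry (79.4%) and in 5362 of 27305 promoters (19.6%). RPS15, without it in this window, had differences of -1.33, 0.13 and -0.30, against list medians of -1.23, 0.38 and -0.40. The part of the run in these differences was not tested. Nuclear-encoded respiratory chain genes followed the same order, with medians of -1.07, 0.30 and -0.38 over 77 genes. Of these, 0 were higher in all 3 pairs and 4 lower (5.19%), both under the 10.7% and 8.85% of all genes. The 13 mitochondrially encoded mRNAs went a different way, with medians of -0.61, -0.59 and 0.85. MT-CO1, the core subunit of cytochrome oxidase, was at 28919, 33388 and 11624 CPM in the controls and at 22372, 23196 and 22558 CPM under morphine: the Morphine libraries lay close together, and the Control libraries lay on both sides of them.

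**Figure D5:**
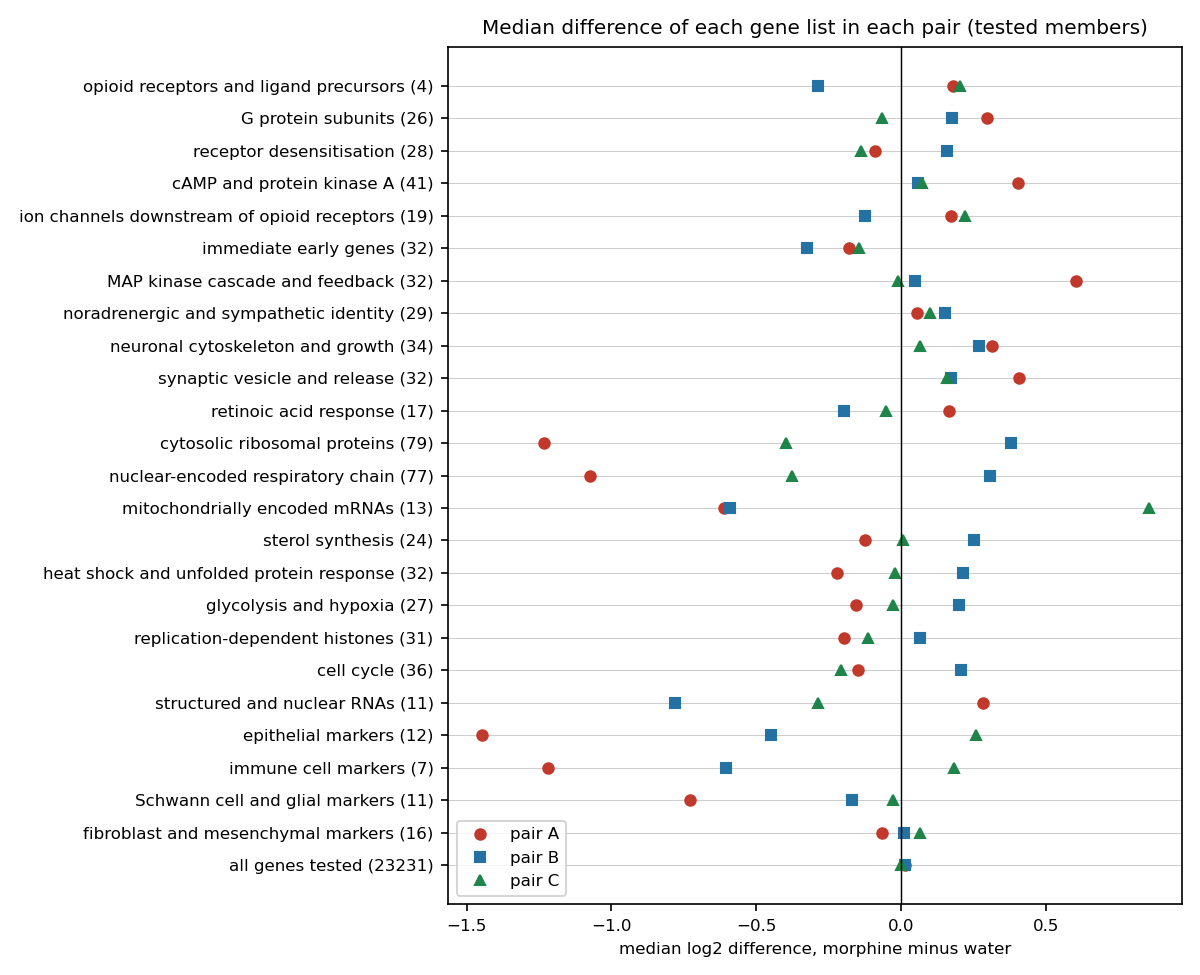
Median pair difference (Morphine minus Control, log2 CPM) of each gene list in the 3 codes. Ribosomal and respiratory chain lists lie below 0 in pair A and pair C and above it in pair B, and the early gene list lies below 0 in all 3.

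Structured and nuclear RNAs set Control 2 apart. The list summed to 3021 CPM in Control 2 and to 832 to 1032 CPM in the other 5 libraries. MALAT1, a nuclear long non-coding RNA, was at 141, 1505 and 96.1 CPM in the controls and at 188, 202 and 116 CPM under morphine. RN7SL1, the RNA of the signal recognition particle, was at 11.8, 197 and 22.4 CPM against 14.4, 18.9 and 5.58 CPM. The log2 fold change of MALAT1 was -1.78 ± 0.78 (SE; edgeR's adjusted p = 0.823) and changed sign without Control 2 (0.51).

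The remaining groups are given against the same 10.7% higher and 8.85% lower of all genes. Sterol synthesis genes gave 6 of 24 higher and 1 lower. Glycolysis and hypoxia genes gave 5 of 27 higher and 1 lower, heat shock and unfolded protein response genes 3 of 32 and 2, and cell cycle genes 1 of 36 and 5. Replication-dependent histone genes gave 3 of 31 higher and 6 lower, the latter all under 3 CPM in every library. Tested markers of other cells gave 0 of 12 higher and 1 lower for epithelium, 0 of 7 and 1 for immune cells, 1 of 11 and 3 for Schwann cells and glia, 1 of 16 and 0 for fibroblasts and 0 of 2 and 2 for endothelium and red cells. The genes of the series title are such low genes: TRIM56, a ubiquitin ligase, was at 4.65, 0.708 and 0 CPM in the controls and at 0.075, 0.0639 and 0 CPM under morphine. RASAL1, a Ras GTPase activator, was at 2.48, 0.531 and 0.0432 CPM against 0, 0.0639 and 0.116 CPM, so both were highest in Control 1. GARIN4 was lower in all 3 pairs, with 9, 25 and 13 reads in the controls and 1, 0 and 1 under morphine. Its log2 fold change was -4.59 ± 1.17 (SE; unadjusted p = 0.00115, edgeR's adjusted p = 0.823), and -4.87 without Control 1.

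The genes with the steadiest difference were chosen by their smallest pair difference, among protein-coding genes with at least 5 CPM and 1 direction in all 3 pairs. These values describe the choice and support no call. The 10 higher genes were SERF1B, FAM234B, ASTN1, ENSG00000270249, SEZ6L, ZNF280B, STXBP4, HRK, NCAN and UTRN. SERF1B, at chr5:70025247-70043113 (+), has a near-identical copy, so its 2.12, 3.72 and 7.22 CPM in the controls and 3.82, 11.7 and 49.4 CPM under morphine are uncertain. It was also the only gene of the 1500 higher in all 3 pairs in this pool of 11986 to exceed 1.5-fold in every pair. Of the 761 lower genes, 0 did. ENSG00000270249 shares exon sequence with overlapping genes and FP565260.2, named below, has near-identical copies, so their counts are uncertain too. Exons of STXBP4 and, among the lower genes below, AAMDC, STKLD1, ZNF575, GNB1L and HAUS8 also overlap those of other genes.

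FAM234B, at chr12:13044284-13142521 (+), was at 5.64, 7.79 and 5.62 CPM in the controls and at 12, 11.1 and 8.82 CPM under morphine, without overlap. SEZ6L, a neuronal membrane protein at chr22:26169474-26383597 (+), was at 36.5, 48.3 and 34.6 CPM against 61.8, 69.7 and 46.4 CPM. HRK, a pro-apoptotic BCL2 family protein, was higher by 0.45, 0.34 and 0.63, and NCAN, a brain proteoglycan, by 0.77, 0.34 and 0.52. ASTN1, a neuronal protein of glia-guided migration, was higher by 0.95, 0.49 and 0.61.

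The 10 lower genes were ZNF837, AAMDC, STKLD1, PPCDC, CCN1, S100A11, FP565260.2, ZNF575, GNB1L and HAUS8. ZNF837, a zinc finger gene at chr19:58367618-58381060 (-), was at 11.1, 8.85 and 9.90 CPM in the controls and at 6.97, 6.59 and 6.51 CPM under morphine. STKLD1, at chr9:133376367-133406096 (+), was at 10.6, 9.65 and 7.87 CPM against 6.26, 5.56 and 6.05 CPM, and PPCDC, a coenzyme A synthesis enzyme at chr15:75023555-75117462 (+), at 11, 6.68 and 6.31 CPM against 3.64, 4.67 and 4.85 CPM. The groups of these 3 genes did not overlap. Their log2 fold changes were -0.57 ± 0.17, -0.65 ± 0.19 and -0.87 ± 0.27 (SE), and edgeR's adjusted p was 0.823 for each. GNB1L, at chr22:19783224-19854939 (-), was lower by 0.31, 0.35 and 0.43. HAUS8, a spindle microtubule protein, was lower by 1.22, 0.31 and 0.30, and S100A11, a calcium-binding protein, by 1.71, 0.48 and 0.34.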

How the data were processed

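The authors deposited raw read counts per Ensembl gene for 18 libraries. They were made with HISAT2 and featureCounts after FastQC on GRCh38 (hg38), with DESeq2 also listed, per the submitters' processing notes. Tool versions and the annotation: not given in the sources used here. All gene IDs were found in GENCODE 29. The counts carry no strand, so overlapping and antisense genes and near-identical copies are uncertain.

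The main test was edgeR 4.0.16 (R 4.3.3): filterByExpr with a minimum count of 10, TMM scaling and the robust quasi-likelihood F test on the 18 libraries with a mean for each group, two-sided, with Benjamini-Hochberg adjustment over 23231 genes and a threshold of 0.05. Pair differences are log2 CPM with a prior count of 2. DESeq2 1.42.0 and limma 3.58.1 were alternatives, as were RLE scaling, other filters, the library code as a block, and leaving out each library. The script was tested on simulated data.

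Named genes were every called gene (there were 0), the 10 per direction with the largest smallest pair difference at 5 CPM or more, and the lead genes of 26 lists. Some genes of these lists are not reported here by name. The comparison and its lists were chosen with earlier results of these data known. Each standard error reflects the spread between libraries, as estimated over the 18 libraries of the main test.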

Additional observations from a re-analysis of the deposited data

How the results depend on the processing

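The count of called genes was 0 in every one of the 15 alternatives run. Genes higher in all 3 pairs numbered 2487, and 1462 with a mean of at least 10 CPM or 4093 with the pairs B and C alone. Genes lower numbered 2055, and 1363 with at least 1 CPM, 697 with at least 10 CPM or 3870 with these 2 pairs alone. The larger counts ask for 2 directions in place of 3. The share of lower genes also fell, from 8.85% to 5.81% at 10 CPM.

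With the library code as a block, 0 genes were called and 3426 had an unadjusted p under 0.05 (1871 higher, 1555 lower), against 944 without it. The median interval reached 0.315 to each side. The common spread between the 18 libraries (biological coefficient of variation) was 0.3091 with the groups alone and 0.1815 with the code added. Deviations from the group mean in libraries with the same code had r = -0.42 in pair A, which holds Control 1. They had r = 0.67 in pair B and 0.47 in pair C. As the labels do not explain the codes, the pairing was not taken as established. Not every library matched its own code best (Control 1 had r = 0.46 with Morphine 3).

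Of 110 named genes reported, 63 kept the sign of the log2 fold change under every alternative that tested them, and 0 passed the threshold under any. The 63 include all 20 genes chosen by their pair differences, a choice that favours a kept sign. RASAL1, GARIN4, TRIM56, H1-4, KRT8 and SOX10 were not tested in the fits of the 6 libraries alone. Of 26 lists, 12 kept the sign of their median, counting the title genes where tested. The neuronal cytoskeleton median ran from 0.14 to 0.26, the synaptic median from 0.17 to 0.30 and the early gene median from -0.41 to -0.13. Leaving out 1 library, genes at an unadjusted p under 0.05 ran from 376 without Control 1 to 3577 without Control 3, and with the 6 libraries alone there were 162. The cause of the changes of sign below was not tested.

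With codes B and C alone and the block, the sign changed for OPRM1 (-0.18), GNAI2 (0.050), GNAS (0.085), ARRB2 (0.061), RGS4 (-0.017), CACNB3 (0.026), PHOX2A (0.079), GAP43 (0.21), SYP (0.23), RARB (-0.15), RET (-0.065), RPS6 (0.024), RPLP0 (0.020), SDHA (0.075), ATP5F1B (0.015), MT-ND1 (0.013), MT-CO1 (0.22), MT-ATP6 (0.12), MT-CYB (0.10), HSPA1A (0.14), DDIT3 (0.052), LDHA (0.12), CCNB1 (0.12), PCNA (0.068), KRT18 (0.50) and CD14 (0.046). With the block and Control 1 left out, the sign changed for DUSP6 (-0.028), GAP43 (0.12), SYP (0.15), RARB (-0.048), SDHA (0.045), ATP5F1B (0.037), MT-CO1 (0.041), HSPA1A (0.0022), LDHA (0.054), CCNB1 (0.062) and KRT18 (0.43). Without a low-count filter, the sign changed for SPRY2 (0.035), SYP (0.042), SDHA (0.017) and ATP5F1B (0.035). With the block over 18 libraries, the sign changed for SPRY2 (0.013), ATP5F1B (0.024) and MT-CO1 (0.021). With limma's voom and the block, the sign changed for GAP43 (0.032), SYP (0.091), SDHA (0.016), ATP5F1B (0.041), MT-CO1 (0.060), LDHA (0.022), CCNB1 (0.010), KRT18 (0.21) and COL1A1 (-0.027). With RLE scaling, the sign changed for HSPA5 (-0.0082) and HERPUD1 (-0.0042). With DESeq2, the sign changed for HSPA5 (-0.0081) and HERPUD1 (-0.0040). With the 6 libraries alone, the sign changed for HSPA5 (-0.021) and HERPUD1 (-0.015). With the block over the 6 libraries, the sign changed for HSPA5 (-0.0052), HERPUD1 (-0.0081) and KRT18 (0.061).

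Leaving out 1 library at a time, the log2 fold changes that changed sign ranged as follows: OPRM1 -0.14 to 1.08, OPRD1 -0.69 to 0.50, GNAZ -0.046 to 0.33, ARRB2 -0.26 to 0.0014, RGS4 -0.14 to 0.39, CACNB3 -0.14 to 0.0033, EGR1 -0.60 to 0.084, DUSP1 -0.81 to 0.091, DUSP6 -0.14 to 0.42, SPRY2 -0.16 to 0.30, PHOX2A -0.24 to 0.050, HAND2 -0.079 to 0.28, DBH -0.20 to 0.25, STMN2 -0.15 to 0.35, GAP43 -0.39 to 0.25, SYP -0.13 to 0.15, RARB -0.25 to 0.45, RET -0.027 to 0.57, SDHA -0.089 to 0.077, ATP5F1B -0.18 to 0.20, MT-CO1 -0.45 to 0.17, MT-CYB -0.61 to 0.013, SQLE -0.025 to 0.28, INSIG1 -0.026 to 0.23, HSPA1A -0.40 to 0.0028, HSPA5 -0.092 to 0.18, HERPUD1 -0.067 to 0.086, PGK1 -0.059 to 0.26, LDHA -0.44 to 0.13, TXNIP -0.13 to 0.31, H2AC6 -0.17 to 0.44, H2BC5 -0.14 to 0.39, TOP2A -0.016 to 0.56, CCNB1 -0.43 to 0.17, MALAT1 -2.28 to 0.51, KRT18 -0.63 to 0.51, COL1A1 -0.31 to 0.42 and VIM -0.34 to 0.11.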

Other observations

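Single libraries set many of the largest differences. These genes were chosen after their values were seen: those with a mean of at least 10 CPM in which 1 library lay more than 4-fold outside the other 5, on the CPM scale with 0.5 CPM added. Control 1 lay below the other 5 in 33 such genes, of which 13 were annotated as antisense, 9 as protein-coding and 11 as other classes. It lay above them in 0. Among all 11988 genes with this mean, 606 were antisense and 10696 protein-coding. The median pair A difference of these 606 antisense genes was -0.19, so most of them were higher in Control 1 than in Morphine 1. SMARCA5-AS1, an antisense transcript, was at 0.451 CPM in Control 1 and at 10.5 to 22.2 CPM in the other 5. SLC2A3P1, a processed pseudogene, was at 0.496 CPM against 15.0 to 42.3 CPM. HIF1A-AS1 was at 1.13 CPM against 13.1 to 27.1 CPM. The 33 genes were higher under morphine in pair A by construction. The labels do not say whether Control 1 was made or counted otherwise than the other libraries, and this was not tested. Every pair A difference includes this library.

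Control 2 lay above the other 5 in 8 genes, 0 of them protein-coding. The 8 are not all separate RNAs. Among them, exons of RN7SL1 overlap AL139099.4, which had the same CPM in every library, and exons of MALAT1 overlap ENSG00000278217. RN7SL2, a signal recognition particle RNA, was at 333 CPM in Control 2 and at 4.66 to 32.3 CPM in the other 5. ENSG00000280614, a long non-coding RNA, was at 280 CPM against 0.0451 to 16.8 CPM, and ENSG00000281181 at 334 CPM against 0.587 to 47.0 CPM. Morphine 3 had 1 gene above and 1 below, and Control 3, Morphine 1 and Morphine 2 had 0.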
